A study of Caenorhabditis elegans with 12 samples.

Results

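The genes described here are 5 genes of Caenorhabditis elegans that handle products of sugar metabolism. They were chosen by name: glod-4, djr-1.1 and djr-1.2 for the removal of methylglyoxal, and ogt-1 and oga-1 for the cycling of O-GlcNAc, a sugar mark on proteins. Of these 5 genes, 4 had a row among the 15365 genes of the expression table, and djr-1.2 was not analysed here. The RNA came from whole N2 wild-type worms in 4 groups of 3 libraries each. The worms of all groups were fed OP50 bacteria on agar plates at 20 °C, and the exposures began at the L4 larval stage. The Nar+Glu worms received 2% glucose and 25 μM naringin, a flavonoid glycoside of citrus fruit, dissolved in dimethyl sulfoxide (DMSO). The DMSO+Glu worms received 2% glucose with DMSO, the Glu worms received 2% glucose, and the Control worms received no addition. By the study's methods, the exposure lasted 5 days and offspring were washed away during it. Whole adult worms include the germline and the embryos they carry, so a level is an average over many tissues. In such bulk RNA, fewer cells of a type and less RNA per cell cannot be told apart.

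Methylglyoxal is a reactive dicarbonyl that forms from the triose phosphates of glycolysis and attacks proteins and DNA. Glyoxalase I, encoded by glod-4, joins it to glutathione in the main route of its removal, and the DJ-1 homologues, djr-1.1 and djr-1.2 in the worm, have been described as glutathione-independent glyoxalases. O-GlcNAc is a single N-acetylglucosamine placed on serine and threonine residues of nuclear and cytosolic proteins. The transferase OGT-1 adds it, using UDP-GlcNAc made from glucose by the hexosamine pathway, and the hydrolase OGA-1 removes it. Both metabolites derive from glucose, which links these genes to a diet with added sugar.

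All levels are FPKM, fragments scaled by transcript length and by the mapped fragments of the library, and changes are differences of log2(FPKM + 1) between group means. Tests were two-sided with limma, from 1 fit of the 12 libraries that took in 12151 genes averaging over 1 FPKM, and a gene was called at an adjusted p (Benjamini-Hochberg over all those genes) below 0.05. All 4 genes with a row passed the filter. The labels do not say that the 3 libraries of a group came from separate cultures, so the p-values measure only the spread between these libraries. The summed FPKM of a library was 308900 to 362748, highest in Control replicate 1. The number of fragments behind the values is unknown, and no counting interval can be given for them. The comparisons share libraries with each other and are not independent.

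The 4 genes were expressed in every library. In the WBcel235 assembly, glod-4 (WBGene00006448) lies on chromosome III at 4153599 to 4154649 on the plus strand and has 4 exons, and djr-1.1 (WBGene00015184) lies on chromosome II at 290582 to 291849 on the plus strand with 3 exons. The gene ogt-1 (WBGene00003858) lies on chromosome III at 7145842 to 7153797 and oga-1 (WBGene00020596) on chromosome X at 9343333 to 9347430, both on the minus strand. None of the 4 overlaps another annotated gene. The paralogue djr-1.2 (WBGene00016789) lies apart from djr-1.1, on chromosome V at 4054074 to 4055125 on the minus strand, and its coding sequence of 186 codons is close in length to the 187 codons of djr-1.1. Averaged over the 12 libraries, ogt-1 stood highest with 30.5 FPKM, followed by djr-1.1 with 27.7 FPKM, glod-4 with 16.05 FPKM and oga-1 with 8.32 FPKM, which placed them at the 82.0, 79.5, 67.2 and 55.8 percentiles of all genes. The libraries of ogt-1 (26.2 to 32.8 FPKM) and djr-1.1 (23.8 to 32.2 FPKM) overlapped, while glod-4 (12.9 to 20.2 FPKM) and oga-1 (7.22 to 9.30 FPKM) each kept apart from the genes next to them in level.

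The O-GlcNAc cycling genes were among the least variable genes across the libraries. The coefficient of variation over the 12 libraries was 6.89% for ogt-1 and 7.05% for oga-1, against a median of 14.3% for all genes tested, and only 4.45% and 5.02% of genes varied as little or less. The glyoxalase genes varied more, by 11.4% for glod-4 and 9.95% for djr-1.1, still below that median. From the lowest to the highest library, the levels spanned 1.57-fold for glod-4, 1.35-fold for djr-1.1, 1.29-fold for oga-1 and 1.25-fold for ogt-1.

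**Figure D1:**
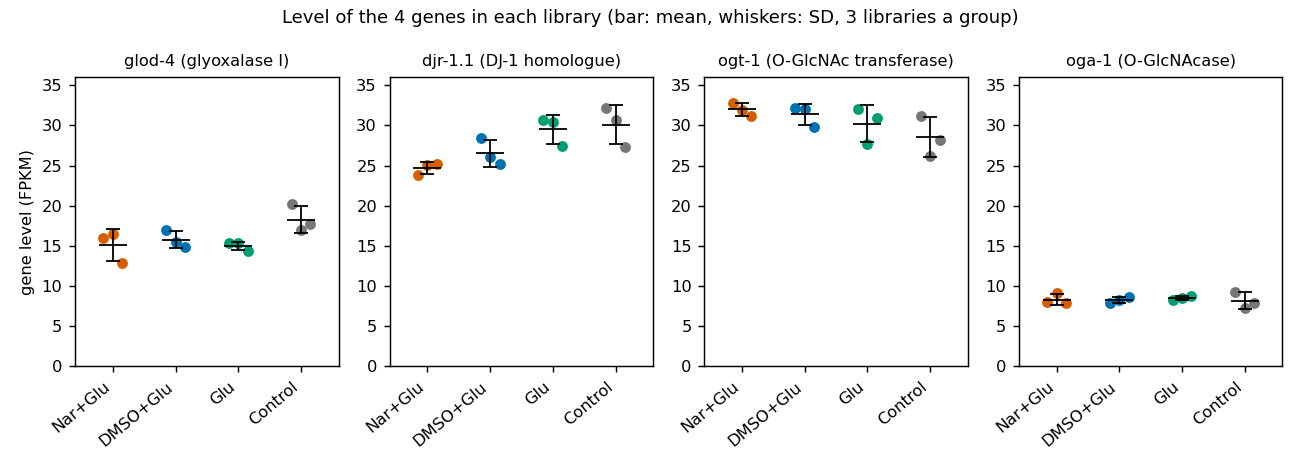
Gene level in FPKM (vertical axes, starting at 0) in each of the 12 libraries, in 1 panel for each gene. Points are libraries, horizontal bars are group means and whiskers are the SD of 3 libraries. The 3 Control libraries of glod-4 lie at 16.9 FPKM or above, the Nar+Glu libraries of djr-1.1 at 25.2 FPKM or below, and the groups of oga-1 share 1 range.

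The first question was whether glucose shifted these genes (Glu against Control). The glyoxalase I gene glod-4 had the largest difference of the 4. It had 15.3, 15.3 and 14.4 FPKM in Glu worms, against 20.2, 16.9 and 17.7 FPKM in Control worms. All Glu libraries thus lay below all Control libraries, and in this comparison the groups did not overlap in 45.4% of all genes tested. The group means were 15.0 ± 0.516 FPKM in Glu worms and 18.3 ± 1.69 FPKM in Control worms (SD, n = 3 each). The log2 change was -0.26 (95% interval -0.47 to -0.06), and limma's adjusted p of 0.0512 missed the threshold. It passed without Control replicate 2, with a log2 change of -0.31 and an adjusted p of 0.0415 by limma, and moved further from the threshold without any other library, with limma's adjusted p from 0.0771 to 0.174 (the highest without Control replicate 1). After quantile normalization the log2 change was -0.19 (adjusted p = 0.141 by limma). It also passed when genes needed a mean above 5 FPKM (limma, adjusted p = 0.0414). At an unadjusted p below 0.05 with more than a 1.1-fold change, the study's own kind of threshold, glod-4 passed as well, beside 44.8% of all genes tested.

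The other 3 genes differed less between these groups than their replicates did. The DJ-1 homologue djr-1.1 had 30.7, 30.4 and 27.5 FPKM in Glu worms, against 32.2, 30.7 and 27.4 FPKM in Control worms, 2 sets of nearly equal values with a log2 change of -0.02 (95% interval -0.19 to 0.14). The transferase gene ogt-1 had 31.97, 27.6 and 31.0 FPKM in Glu worms and 31.2, 26.2 and 28.1 FPKM in Control worms, and its log2 change was 0.08 (95% interval -0.08 to 0.24). The hydrolase gene oga-1 had 8.30, 8.54 and 8.74 FPKM in Glu worms, inside the Control range of 7.22 to 9.30 FPKM, with a log2 change of 0.06 (95% interval -0.14 to 0.27). By limma, 0 of the 4 genes were called and 1 had an unadjusted p below 0.05, while 31.3% of all genes tested were called in this comparison. After quantile normalization, ogt-1 was called higher in Glu worms, with a log2 change of 0.22 and an adjusted p of 0.0138 by limma, and the djr-1.1 difference became positive at 0.11.

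Naringin was compared with its solvent on the same glucose (Nar+Glu against DMSO+Glu). None of the 4 genes was called here by limma, none had an unadjusted p below 0.05, and 9.87% of all genes tested were called. Glyoxalase I gene glod-4 had 16.02, 16.5 and 12.9 FPKM in Nar+Glu worms, against 16.99, 15.4 and 14.9 FPKM in DMSO+Glu worms. Its log2 change of -0.06 (95% interval -0.27 to 0.14) rested on Nar+Glu replicate 3, the lowest of the 12 libraries, and was 0.04 without it. For djr-1.1, the values were 23.8, 25.1 and 25.2 FPKM in Nar+Glu worms, against 28.4, 26.1 and 25.1 FPKM in DMSO+Glu worms. The highest Nar+Glu library overlapped the lowest DMSO+Glu library, and the log2 change was -0.10 (95% interval -0.26 to 0.06). Transferase ogt-1 had 32.8, 31.96 and 31.2 FPKM in Nar+Glu worms, against 32.2, 32.02 and 29.8 FPKM in DMSO+Glu worms, a log2 change of 0.03 (95% interval -0.13 to 0.19). Hydrolase oga-1 had 8.03, 9.08 and 7.84 FPKM in Nar+Glu worms, against 7.85, 8.26 and 8.68 FPKM in DMSO+Glu worms, with a log2 change of 0.01 (95% interval -0.20 to 0.21).

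The solvent was compared with glucose alone (DMSO+Glu against Glu), where limma called 0 of the 4 genes, none had an unadjusted p below 0.05 and 1.25% of all genes tested were called. The log2 change was 0.07 for glod-4 (95% interval -0.14 to 0.27), 0.05 for ogt-1 (95% interval -0.11 to 0.22) and -0.04 for oga-1 (95% interval -0.25 to 0.17). It was largest in size for djr-1.1, at -0.15 (95% interval -0.31 to 0.01). Its means were 26.5 ± 1.67 FPKM in DMSO+Glu worms and 29.5 ± 1.81 FPKM in Glu worms (SD, n = 3 each), and the libraries overlapped.

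The only calls among the 4 genes came from the widest contrast of the design, Nar+Glu against Control, in which glucose, solvent and naringin cannot be told apart. Both glyoxalase-related genes were lower in Nar+Glu worms. For djr-1.1, the mean was 24.7 ± 0.746 FPKM in Nar+Glu worms and 30.1 ± 2.46 FPKM in Control worms (SD, n = 3 each), and all Nar+Glu libraries lay below all Control libraries. It fell by 0.27 on the log2 scale (95% interval -0.43 to -0.11; adjusted p = 0.00823 by limma). For glod-4, the mean was 15.1 ± 1.98 FPKM in Nar+Glu worms and 18.3 ± 1.69 FPKM in Control worms (SD, n = 3 each), again without overlap, and it fell by 0.26 on the log2 scale (95% interval -0.47 to -0.05; adjusted p = 0.0347 by limma). This contrast called 54.8% of all genes tested, and 33.2% of all genes tested were called lower. With 2 of the 4 genes called, the set is near the 54.8% of all genes. The groups did not overlap in 60.6% of all genes tested, and in glod-4, djr-1.1 and ogt-1 of this set. The djr-1.1 call was kept when any 1 library was left out, with limma's adjusted p between 0.0049 and 0.0326, but was lost after quantile normalization (log2 change -0.09, adjusted p = 0.277 by limma) and with a library covariate (adjusted p = 0.0634). The glod-4 call was lost without Control replicate 1 (adjusted p = 0.135 by limma), Control replicate 3 (adjusted p = 0.0536 by limma) or Nar+Glu replicate 3 (log2 change -0.15, adjusted p = 0.183 by limma), after median-ratio scaling (adjusted p = 0.0642 by limma) or quantile normalization (adjusted p = 0.153 by limma), from the 6 libraries alone (adjusted p = 0.0656 by limma), and with the covariate (adjusted p = 0.183).

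The O-GlcNAc genes had small positive differences in that contrast, and neither was called. Transferase ogt-1 averaged 31.99 ± 0.793 FPKM in Nar+Glu worms and 28.5 ± 2.501 FPKM in Control worms (SD, n = 3 each). The lowest Nar+Glu library, at 31.21 FPKM, stood just above the highest Control library, at 31.19 FPKM. The log2 change was 0.16 (95% interval 0.00302 to 0.32; adjusted p = 0.0772 by limma). It was 0.23 after median-ratio scaling (adjusted p = 0.00374 by limma) and 0.23 without Control replicate 1 (adjusted p = 0.0223 by limma), and it passed the threshold in both. After quantile normalization ogt-1 was called higher as well. The summed FPKM of its transcripts, an alternative chosen after seeing the data, gave 0.06 (adjusted p = 0.637 by limma), and the groups overlapped. Hydrolase oga-1 averaged 8.31 ± 0.668 FPKM in Nar+Glu worms and 8.16 ± 1.06 FPKM in Control worms (SD, n = 3 each), and its log2 change was 0.03 (95% interval -0.18 to 0.23).

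The order of the group means of djr-1.1 was Nar+Glu, DMSO+Glu, Glu and Control from low to high, and that of ogt-1 was the reverse. In both genes each group overlapped its neighbour in that order. The ogt-1 order held for the gene's own FPKM only. With the summed FPKM of its transcripts, the alternative chosen after seeing the data, the mean was lowest in Glu worms (31.7 FPKM), below Control worms (32.2 FPKM). Against Glu, djr-1.1 was lower in all 3 Nar+Glu libraries, by a log2 change of -0.25 (95% interval -0.41 to -0.09), with an adjusted p of 0.0576 by limma in a comparison that called 8.37% of all genes tested and in which 30.1% did not overlap. In DMSO+Glu against Control, the changes were -0.20 for glod-4 (95% interval -0.40 to 0.01), -0.17 for djr-1.1 (95% interval -0.33 to -0.01), 0.14 for ogt-1 (95% interval -0.03 to 0.30) and 0.02 for oga-1 (95% interval -0.18 to 0.23) on the log2 scale. None was called there, while 20.9% of all genes tested were.

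**Figure D2:**
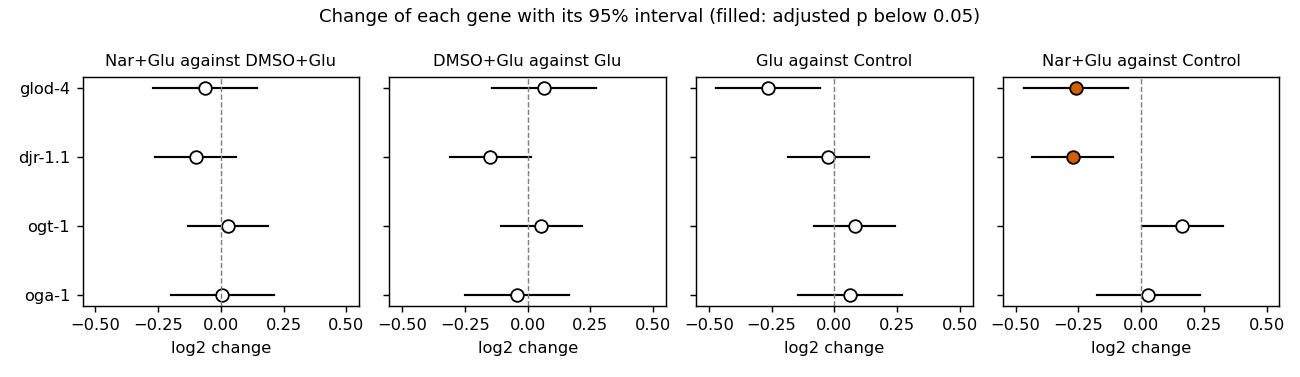
Difference of log2(FPKM + 1) (horizontal axis) for each gene in 4 comparisons, with the 95% interval of the limma fit. Filled points have an adjusted p below 0.05. Only glod-4 and djr-1.1 in Nar+Glu against Control are filled, at -0.26 and -0.27.

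The balance of the O-GlcNAc pair was also read within each library, as the log2 ratio of ogt-1 to oga-1 (1 FPKM added to each), which scaling a whole library moves little. The ratio of the FPKM values themselves was 3.23 to 4.10 in the 12 libraries. The log2 ratio was 1.83 ± 0.10 in Nar+Glu worms, 1.80 ± 0.12 in DMSO+Glu worms, 1.71 ± 0.12 in Glu worms and 1.69 ± 0.04 in Control worms (SD, n = 3 each). The differences were 0.02 for Nar+Glu against DMSO+Glu (p = 0.8), 0.10 for DMSO+Glu against Glu (p = 0.4) and 0.02 for Glu against Control (p = 0.9) in exact two-sided permutation tests. With 3 libraries a group such a test cannot go below 0.1, and the adjusted p over the 3 comparisons was 0.9 for each (Benjamini-Hochberg, exact permutation tests).

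The transcript table splits ogt-1 in a way that the gene level does not show. The table gives 3 transcripts for it: K04G7.3a.1, with 13 exons and a coding sequence of 1151 codons; K04G7.3b, with 9 exons and 973 codons; and K04G7.3a.2, which has no entry in the annotation used here. The shorter form adds no sequence of its own, since all 2922 bases of its exons lie within those of K04G7.3a.1 and make up 71.1% of them. The bases that tell the 2 forms apart are thus found in the longer form alone, at its start and in its 3′ untranslated end. Its 5′ exons carry codons that the shorter form lacks, and 84.5% of the longer coding sequence is shared.

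**Figure D3:**
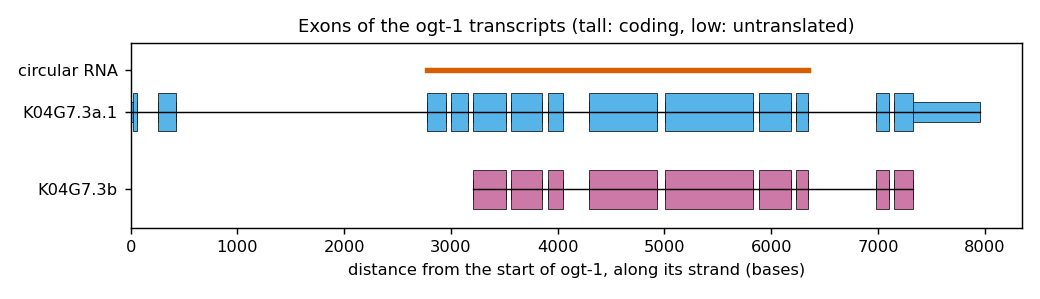
Exons of the 2 annotated ogt-1 transcripts along the gene (horizontal axis, bases from the gene's start in the direction of transcription). Tall boxes are coding and low boxes untranslated, and the bar above them marks the circular RNA listed in this gene, which runs from exon 3 to exon 11 of K04G7.3a.1. Every box of K04G7.3b sits under a box of K04G7.3a.1.

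Each library gave most ogt-1 signal to 1 of these 2 forms. K04G7.3b held 81.8% to 85.8% of the transcript sum in 6 libraries, and K04G7.3a.1 held 87.4% to 91.2% in the other 6. In Nar+Glu worms, K04G7.3a.1 had 29.9, 28.3 and 3.32 FPKM, in DMSO+Glu worms 2.14, 29.0 and 27.3 FPKM, in Glu worms 3.10, 24.3 and 28.4 FPKM, and in Control worms 2.75, 1.96 and 2.53 FPKM. The shorter K04G7.3b mirrored it, at 25.1 to 31.3 FPKM in the 6 libraries where the longer form was low and at 0.0048 FPKM or less in the other 6. The 6 libraries with the shorter form were all 3 Control libraries and 1 library of each glucose group, so replicates of a single group stood at opposite extremes. The third transcript, K04G7.3a.2, stayed between 2.48 and 3.90 FPKM in all libraries. Over all genes with several transcripts and a summed mean of at least 5 FPKM, 301 of 3615 (8.33%) had a transcript with less than 5% of the gene in 1 library and more than 80% in another, and 245 (6.78%) did so within a group.

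**Figure D4:**
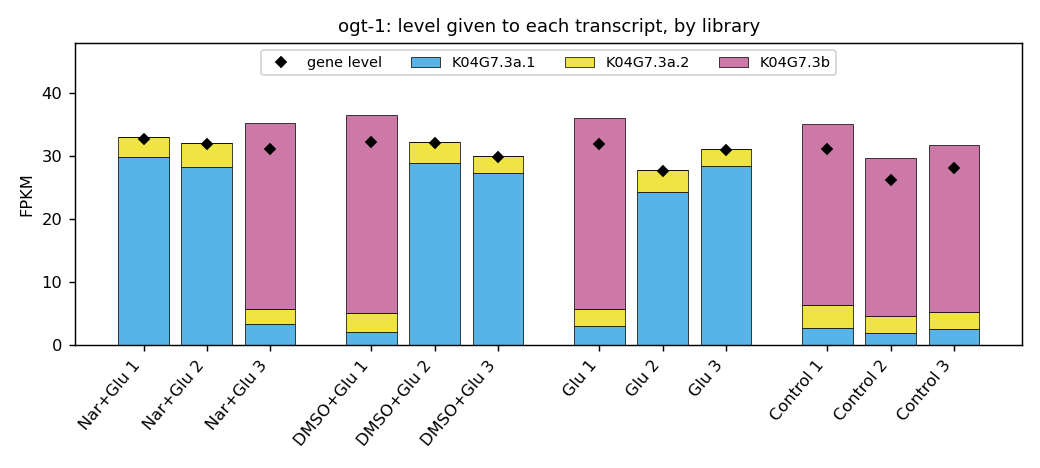
FPKM of the 3 ogt-1 transcripts in each library, stacked (vertical axis from 0), with the gene's own FPKM as a diamond. In 6 libraries K04G7.3a.1 holds the largest share, in the other 6 K04G7.3b does, and the diamonds stay between 26.2 and 32.8 FPKM.

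No group difference tested on these forms was called by limma, although all Glu libraries of K04G7.3a.1 lay above all Control libraries. The lowest Glu library had 3.10 FPKM and the highest Control library 2.75 FPKM. The share of all transcripts without such overlap was not computed. In Glu against Control, K04G7.3a.1 averaged 18.6 ± 13.6 FPKM in Glu worms and 2.41 ± 0.409 FPKM in Control worms (SD, n = 3 each; log2 change 2.09, 95% interval -0.33 to 4.52, adjusted p = 0.253 by limma over 17588 transcripts). For K04G7.3b the averages were 10.12 ± 17.5 FPKM in Glu worms and 26.7 ± 1.85 FPKM in Control worms (SD, n = 3 each; log2 change -3.13, adjusted p = 0.311 by limma). The transcripts summed to 1.13 times the gene's FPKM in the libraries with the shorter form and to 1.01 times in the others. With that sum in place of the gene value, the Glu against Control change of ogt-1 was -0.03 (adjusted p = 0.861 by limma), against 0.08 from the gene value, so its sign depended on which of the 2 was used. None of the transcripts of the 4 genes was called by limma in Glu against Control, Nar+Glu against DMSO+Glu or DMSO+Glu against Glu, where 9.39%, 2.19% and 0.216% of all transcripts tested were called.

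The 2 transcripts of oga-1 were both present throughout. T20B5.3a, with 13 exons, held 48.6% to 69.0% of the transcript sum and T20B5.3b, with 12 exons, the remaining 31.0% to 51.4%. Their exons are nearly the same, with 99.9% of the bases of T20B5.3a found in T20B5.3b. The shares moved as much within groups as between them: T20B5.3a held 50.6%, 54.7% and 62.2% in Nar+Glu libraries, 55.9%, 49.2% and 68.0% in DMSO+Glu libraries, 48.6%, 69.0% and 61.9% in Glu libraries, and 67.7%, 56.7% and 51.6% in Control libraries. The genes glod-4 and djr-1.1 had a single transcript each.

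A circular RNA, a closed loop formed when a downstream exon is joined back to an upstream one, was listed within ogt-1 at III:7147452-7151017 on the minus strand. It runs from the start of exon 3 to the end of exon 11 of K04G7.3a.1. It had 1 and 6 counts in DMSO+Glu replicates 1 and 2, 2 counts in Glu replicate 2 and 0 counts in the other 9 libraries, out of 856 to 1550 circular RNA counts per library. The 0 of 3200 counts in Nar+Glu worms allow a share of up to 0.0938%, and the 0 of 2709 counts in Control worms a share of up to 0.111%. These limits cover counting error only. By the study's methods, the RNA was enriched for poly(A) mRNA before the libraries were made. The effect of this step on circular RNA counts was not tested. With so few counts, no difference between the groups could be detected at this depth.

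Several genes around methylglyoxal passed the test in the comparisons where glod-4 and djr-1.1 did not, although the difference between them was not tested. A list of 12 genes held enzymes of the triose phosphates that give rise to methylglyoxal (tpi-1 and gpd-1 to gpd-4), the glutathione genes gcs-1, gss-1 and gsr-1, the sequence-named genes Y17G7B.3 and F32D8.12, the cation channel gene trpa-1 and the stress response factor skn-1. In Glu against Control, limma called 3 higher and 1 lower, beside 12.6% and 18.7% of all genes tested, and the median log2 change was -0.15, against -0.06 over all genes tested. Of all calls in this comparison 40.2% were higher in Glu worms, a share that was 53.8% after median-ratio scaling and 51.2% after quantile normalization. The glyceraldehyde-3-phosphate dehydrogenase gene gpd-3 had 103, 97.6 and 108 FPKM in Glu worms, against 83.4, 83.5 and 75.2 FPKM in Control worms, without overlap (log2 change 0.35, 95% interval 0.22 to 0.47, adjusted p = 0.00116 by limma). Its copy gpd-2 rose by 0.21 (adjusted p = 0.0205 by limma), a call lost without Control replicate 1, Glu replicate 1 or Glu replicate 3. F32D8.12 rose by 0.53 on the log2 scale (27.2 ± 1.38 FPKM in Glu worms, 18.9 ± 4.3 FPKM in Control worms; SD, n = 3 each; adjusted p = 0.0369 by limma). The glutathione reductase gene gsr-1 fell by 0.24 (adjusted p = 0.0361 by limma). Leaving out single libraries ended the F32D8.12 call in all cases but Control replicate 2, and the gsr-1 call in all but Control replicate 3 and Glu replicate 2. The gsr-1 call was also lost after median-ratio scaling (log2 change -0.18, adjusted p = 0.109 by limma) and quantile normalization (log2 change -0.09, adjusted p = 0.476 by limma), from the 6 libraries alone (adjusted p = 0.0512 by limma) and with no variance trend (adjusted p = 0.0587 by limma). Of this list, 4 genes were called from all libraries. With single libraries left out, the number ranged from 1 (without Control replicate 1 or Glu replicate 3) to 4. It was 5 with a mean above 5 FPKM, 7 at the study's threshold, 2 with no variance trend and 0 with the library covariate.

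In Nar+Glu against DMSO+Glu, 6 of the 12 genes were called lower and 0 higher, with a median log2 change of -0.22 against -0.01 over all genes tested, of which 5.00% were called lower and 4.87% higher. The values of gpd-2 were 62.6, 60.4 and 64.4 FPKM in Nar+Glu worms, against 85.2, 84.2 and 75.8 FPKM in DMSO+Glu worms. All Nar+Glu libraries lay below the lowest DMSO+Glu library (the groups did not overlap in 34.6% of all genes tested), and the gene fell by 0.38 on the log2 scale (95% interval -0.51 to -0.25; adjusted p = 0.00175 by limma). Likewise gpd-3 had 79.4, 82.2 and 75.9 FPKM in Nar+Glu worms, against 98.6, 101 and 99.9 FPKM in DMSO+Glu worms, and fell by 0.33 (adjusted p = 0.00361 by limma). The other pair of dehydrogenase genes was lower too, gpd-4 by a log2 change of -0.29 (adjusted p = 0.0259 by limma). The glutathione synthetase gene gss-1 changed by -0.22 on the log2 scale (17.7 ± 0.931 FPKM in Nar+Glu worms, 20.8 ± 0.275 FPKM in DMSO+Glu worms; SD, n = 3 each; adjusted p = 0.04995 by limma). The remaining called genes, named here after their values were seen, were the triose phosphate isomerase gene tpi-1 at -0.21 (adjusted p = 0.0394 by limma) and gpd-1 at -0.21 (adjusted p = 0.0486 by limma). The genes gpd-2 and gpd-3 are near-identical copies, as are gpd-1 and gpd-4, so how fragments were divided within each pair is uncertain. Without single libraries, 2 to 4 of the 6 calls were left, with 2 left without DMSO+Glu replicate 1 or 3 or Nar+Glu replicate 2 or 3, and the calls of gpd-2 and gpd-3 held each time. The gss-1 call was lost whichever library was left out. Over the list, 3 calls were left after quantile normalization and 2 with no variance trend.

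The hexosamine pathway, which makes the UDP-GlcNAc that OGT-1 uses, was followed through 8 genes, of which 7 had a row. In Glu against Control, 3 were called lower and 0 higher, beside 18.7% and 12.6% of all genes tested, with a median log2 change of -0.15 against -0.06 over all of them. The gene gfat-2, which encodes the glutamine-fructose 6-phosphate aminotransferase at the entry of the pathway, had 105, 99.2 and 101 FPKM in Glu worms, against 128, 116 and 126 FPKM in Control worms. It was lower in every Glu library and fell by 0.27 on the log2 scale (95% interval -0.40 to -0.15; adjusted p = 0.00449 by limma). F21D5.1, listed as pgm-3 by RefSeq, fell by 0.32 (47.2 ± 3.13 FPKM in Glu worms, 59.5 ± 6.95 FPKM in Control worms; SD, n = 3 each; adjusted p = 0.0113 by limma), and C36A4.4 fell by 0.31 (67.8 ± 2.72 FPKM in Glu worms, 84.4 ± 10.2 FPKM in Control worms; SD, n = 3 each; adjusted p = 0.0088 by limma). These 3 calls held when any single library was left out and after quantile normalization, which made the changes smaller, at -0.18 for gfat-2, -0.19 for F21D5.1 and -0.17 for C36A4.4. The 3 calls were lost with the library covariate, in a fit that did not share the spread between genes. The changes were not smaller there, at -0.30 for gfat-2, -0.41 for F21D5.1 and -0.39 for C36A4.4.

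In Nar+Glu against DMSO+Glu, 3 genes of this pathway were called lower and 0 higher, beside 5.00% and 4.87% of all genes tested, with a median log2 change of -0.21 against -0.01 over all of them. The aminotransferase gene gfat-1 had 65.7, 75.8 and 69.9 FPKM in Nar+Glu worms, against 98.0, 81.8 and 94.4 FPKM in DMSO+Glu worms. It was the largest decrease of the list, by 0.37 on the log2 scale (95% interval -0.52 to -0.21; adjusted p = 0.00634 by limma), and its call held when any single library was left out. Its paralogue gfat-2 fell by 0.21 (91.4 ± 2.47 FPKM in Nar+Glu worms, 106 ± 5.31 FPKM in DMSO+Glu worms; SD, n = 3 each; adjusted p = 0.0358 by limma). The glucose-6-phosphate isomerase gene gpi-1, which supplies the fructose 6-phosphate, fell by 0.25 (42.7 ± 1.74 FPKM in Nar+Glu worms, 50.8 ± 1.94 FPKM in DMSO+Glu worms; SD, n = 3 each; adjusted p = 0.0445 by limma). The gfat-2 change was -0.12 after quantile normalization, where its call was lost (adjusted p = 0.092 by limma), as it was from the 6 libraries alone (adjusted p = 0.0523 by limma) and with no variance trend (adjusted p = 0.0802 by limma). Leaving out any single library ended the call of gpi-1, and all but DMSO+Glu replicate 2 ended that of gfat-2, so that 1 or 2 genes of the pathway were left called. Neither list had a call by limma in DMSO+Glu against Glu. Whether these changes differ from those of ogt-1 and oga-1 was not tested.

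**Figure D5:**
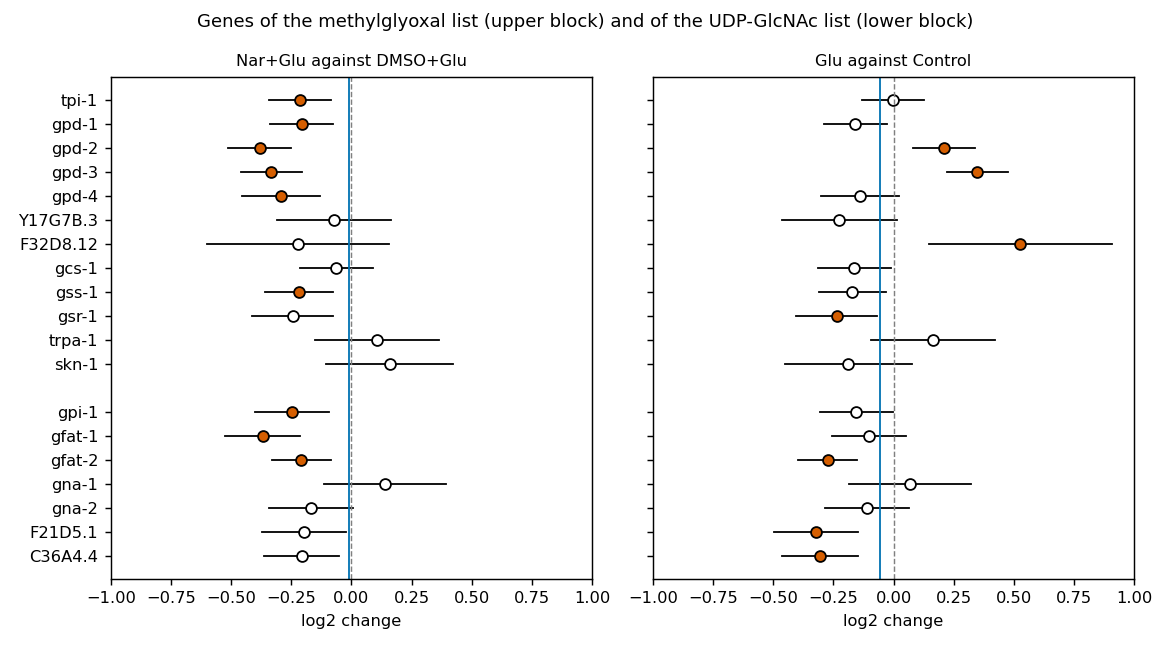
Difference of log2(FPKM + 1) with its 95% interval for the 12 genes of the methylglyoxal list (upper block) and the 7 measured genes of the UDP-GlcNAc list (lower block), in Nar+Glu against DMSO+Glu (left) and Glu against Control (right). Filled points have an adjusted p below 0.05 and the solid vertical line is the median of all genes tested. On the left all 9 filled points lie below 0, and on the right 3 lie above and 4 below it.

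Marker genes of the germline and other tissues moved in the same comparisons. Summed over 32 sperm genes with a row out of 33, the level was 60.0 to 82.8 FPKM in Nar+Glu worms, against 165 to 196 FPKM in DMSO+Glu worms, and 320 to 336 FPKM in Glu worms, against 158 to 190 FPKM in Control worms. By limma, 26 of the 32 were lower in Nar+Glu against DMSO+Glu, 11 were lower in DMSO+Glu against Glu and 26 were higher in Glu against Control. Of all genes tested, 5.00% were called lower and 4.87% higher in Nar+Glu against DMSO+Glu. The shares were 18.7% lower and 12.6% higher in Glu against Control, and 1.25% in either direction in DMSO+Glu against Glu. Of 12 oocyte and early embryo genes, 11 were lower in Glu against Control and 3 were lower in Nar+Glu against DMSO+Glu, with sums of 2255 to 2393 FPKM in Nar+Glu worms, 2394 to 2609 FPKM in DMSO+Glu worms, 2324 to 2531 FPKM in Glu worms and 2636 to 2912 FPKM in Control worms. Of 5 hypodermis genes, 3 were lower in Nar+Glu against DMSO+Glu, with sums of 349 to 402 FPKM in Nar+Glu worms and 505 to 565 FPKM in DMSO+Glu worms. Of 6 neuronal genes, 3 were higher in Nar+Glu against DMSO+Glu, with sums of 133 to 147 FPKM in Nar+Glu worms and 114 to 127 FPKM in DMSO+Glu worms, while 1 body wall muscle gene and 1 intestinal gene were lower. In Glu against Control, 4 of 5 body wall muscle genes, 4 of 6 neuronal genes and 1 of 5 hypodermis genes were higher, while 3 of 6 intestinal genes were higher and 3 lower. No marker with a row was at 0 in all 12 libraries. The part of these shifts in the differences of the glyoxalase, O-GlcNAc and pathway genes was not tested.

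For each of the 4 genes, the most similar profiles over the 12 libraries were found by the Pearson correlation of log2(FPKM + 1). These points share their libraries and hence any library-wide shift, and the correlations are given as a description. Closest to glod-4 were the heparan sulfate sulfotransferase gene hst-1 (r = 0.95), F18C12.3 (r = 0.95) and C14C11.7 (r = 0.94), and all 3 were highest in Control worms on average, as glod-4 was. For djr-1.1 they were R02D5.8 (r = 0.95), the isocitrate dehydrogenase subunit gene idhg-2 (r = 0.92) and C34B2.8 (r = 0.91), each with its lowest mean in Nar+Glu worms. For ogt-1 they were F58D5.5 (r = 0.96), C44B11.6 (r = 0.95) and C04F12.8 (r = 0.93), each with its lowest mean in Control worms. The hydrolase gene oga-1 had weaker neighbours in the myosin regulatory light chain gene mlc-4 (r = 0.88), Y57G11A.4 (r = 0.84) and pals-17 (r = 0.84). Among the 4 genes themselves, r ran from -0.43 for djr-1.1 and ogt-1 to 0.48 for glod-4 and djr-1.1, and was 0.38 for ogt-1 and oga-1.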

How the data were processed

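Groups were taken from the labels. The authors computed gene and transcript FPKM on the WBcel235 assembly, and the submitters' processing notes name HISAT2 2.1.0, StringTie 1.3.3, STAR 2.5.2b and edgeR. In the deposited FPKM, no gene had a highest group mean below 0.5, so weaker genes had been left out beforehand. The authors deposited circular RNA values as raw counts for 2136 loci, and only loci named by coordinates could be placed in a gene. 

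Genes were tested with limma 3.58.1 in R 4.3.3 on log2(FPKM + 1), with a mean above 1 FPKM, a variance trend and no block. Transcripts (24071 in the table) were tested likewise. The code was tested on simulated data. Plots used Python 3.11.15 with matplotlib 3.10.9. Gene positions come from the Ensembl annotation of WBcel235. No 2 libraries were identical. Replicate numbers were not taken as pairs.

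The genes, pathway lists and marker lists were chosen with earlier results of these data known. The text names all genes of the set, up to 4 called genes of each pathway list per comparison by size of change, and the 3 closest profiles of each gene. Alternatives were the pseudocount, the filter on low values, median-ratio and quantile scaling, the 6 compared libraries alone, a library covariate, the variance trend, the replicate block, a looser threshold (unadjusted p below 0.05 with more than a 1.1-fold change, after the study) and each library left out. Ratios to djr-1.2 were not run, so 3 ratio tests were adjusted together.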

Additional observations from a re-analysis of the deposited data

Results flagged for a closer look

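The circular RNA listed within ogt-1 was counted apart from the gene's FPKM. It had 7 counts of 3744 in the 3 DMSO+Glu libraries together, against 0 counts of 2709 in the 3 Control libraries, which allow a share of up to 0.111%. Of the 7 counts, 6 came from DMSO+Glu replicate 2, and without it 1 count of 2479 was left, a share of 0.0403% that lies below this limit, so the higher sum rests on that library and no difference between the groups was detectable at this depth.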

How the results depend on the processing

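Of 272 values for single genes of the set under the alternatives, 37 changed direction or side of the threshold. The number of genes of the set called in Glu against Control was 0 and became 1 with a mean above 5 FPKM, after quantile normalization, with the replicate block and with the study's threshold, and 0 to 1 when 1 library was left out. In Nar+Glu against Control, alternatives chosen after seeing the data gave 1 called gene after quantile normalization, 1 from the 6 libraries alone and 0 with the library covariate, in place of 2, and 1 to 2 when 1 library was left out. The gene called after quantile normalization was ogt-1, higher in Nar+Glu worms, while the calls of glod-4 and djr-1.1 were lost there. The other 2 comparisons gave 0 under every alternative run.

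Over all genes, quantile normalization left 2248 calls in Glu against Control in place of 3808. The library covariate, fitted without sharing the spread between genes, left 124 in Glu against Control, 0 in Nar+Glu against DMSO+Glu and 0 in DMSO+Glu against Glu, and ended every call of the pathway lists. The study's threshold gave 3220 in Nar+Glu against DMSO+Glu and 1121 in DMSO+Glu against Glu, in place of 1199 and 152, and a mean above 5 FPKM gave 100 in DMSO+Glu against Glu. Leaving out 1 library gave 2013 to 3762, 555 to 1103 and 68 to 127 calls in these 3 comparisons. Median-ratio scaling moved the share of higher calls in Glu against Control to 53.8%, and quantile normalization to 51.2%, against 40.2%. Whether the replicate numbers pair the samples was not settled by the residuals. Residuals of libraries with the same number correlated at -0.10 to 0.13 over 18 pairs. In 17 of 36 cases a library correlated best with its own number in another group, and no chance rate was computed for this. The replicate block gave 3811, 1118 and 130 calls. It brought glod-4 in Glu against Control past the threshold (log2 change -0.26, adjusted p = 0.0326 by limma) and ended the calls of F32D8.12 in Glu against Control and of gss-1 in Nar+Glu against DMSO+Glu.

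Signs turned only in changes that were not called. In Glu against Control, djr-1.1 became 0.0318 with median-ratio scaling and 0.113 with quantile normalization, ogt-1 became -0.00745 with the covariate and -0.025 from summed transcripts (an alternative chosen after seeing the data), and oga-1 became -0.00355 with the covariate. In Nar+Glu against DMSO+Glu, oga-1 became -0.0513 after quantile normalization and ogt-1 -0.00987 with the covariate. In Nar+Glu against Control, oga-1 became -0.0694 after quantile normalization and -0.103 with the covariate. Leaving out 1 library turned the sign of further small changes. In Glu against Control, djr-1.1 ran from -0.0885 to 0.0259 (positive without Control replicate 1 or Glu replicate 3) and oga-1 from -0.011 to 0.152. In Nar+Glu against DMSO+Glu, glod-4 ran from -0.125 to 0.043, ogt-1 from -0.00583 to 0.0477 and oga-1 from -0.0518 to 0.0429. In DMSO+Glu against Glu, ogt-1 ran from -0.00584 to 0.0963, and in Nar+Glu against Control oga-1 ran from -0.046 to 0.117. The log2 ratio of ogt-1 to oga-1 ran from -0.0415 to 0.0789 in Glu against Control, from -0.0444 to 0.0806 in Nar+Glu against DMSO+Glu and from 0.0341 to 0.163 in DMSO+Glu against Glu. The causes were not tested. Alternatives for djr-1.2 were not run.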
